A study of Mus musculus with 92 samples.

Results

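Genes of intestinal lipid absorption and chylomicron formation were followed through mouse small intestine, organoids and fetal spheroids in which Eif4g2, a gene for a translation initiation factor related to eIF4G, was deleted, and through organoids given the acetyltransferase inhibitor A-485. There were 10, taken by name from 4 tables of raw read counts that each list 54532 genes: Apoa1, Apoa4, Apob, Apoc3, Mttp, Fabp1, Fabp2, Cd36, Dgat1 and Mogat2. All 10 were measured in each of 92 RNA-seq libraries and passed the filter on low counts in every comparison.

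Dietary triglyceride is split in the gut lumen, and its fatty acids and monoglycerides enter the enterocyte, the absorptive cell of the villus. Inside the cell, CD36, a fatty acid receptor at the surface, and the cytosolic binding proteins FABP1 and FABP2 handle fatty acids, and the acyltransferases MOGAT2 and DGAT1 rebuild triglyceride in sequence. MTTP, the microsomal triglyceride transfer protein, loads this lipid onto apolipoprotein B, the backbone of the chylomicron, and the apolipoproteins A-I, A-IV and C-III (Apoa1, Apoa4 and Apoc3) join the particle. The mouse epithelium makes enterocytes from stem cells in the crypts, so these genes are known as genes of the differentiated villus cell.

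Tissue came from mice whose Eif4g2 alleles are floxed and whose Cre recombinase is activated by tamoxifen (CreER). Every mouse carried CreER and was injected with tamoxifen at 100 mg/kg daily for 4 days, controls included. In mice with CreER at Rosa26, a locus active in nearly all cells, tissue was taken on day 9: crypts from 4 flox/flox and 5 flox/+ animals and villi from 5 and 5. In mice with CreER at Vil1, a gene of the intestinal epithelium, it was taken at 3 months: crypts from 3 flox/flox and 4 flox/+ animals and villi from 6 and 4. The control tissue is thus flox/+, with 1 allele open to deletion, and not wild type. The labels do not give the animals' ages.

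Adult small intestinal organoids and fetal intestinal spheroids, all carrying Rosa26(CreER), were kept in medium with EGF, Noggin and R-spondin (ENR), given 0.5 µM 4-hydroxytamoxifen (4-OHT) or DMSO for 24 hours and cultured for 6 days. A first organoid experiment compared DMSO and 4-OHT in the same 3 flox/flox lines. A second gave 4-OHT to 4 flox/flox, 4 flox/+ and 4 Eif4g2 +/+ cultures. Spheroids came from 6 flox/flox and 5 flox/+ lines, each with both treatments. In the A-485 experiment, 4 lines were cultured for 4 days with DMSO or with 3, 5 or 10 µM of the compound, a catalytic inhibitor of the p300 and CBP acetyltransferases. Its first line, S6026, is labelled Eif4g2 +/+ and the other 3 (S6070, S6074 and S6076) flox/flox without 4-OHT, although the series' design text calls the A-485 organoids wild type. Replicates are separate animals or lines, except that the labels do not say how the 4 cultures of each genotype in the second organoid experiment were derived. Several spheroid lines share a number and differ by a letter, such as S9484-A and S9484-D. How lines of the same number are related is not given, and each was fitted as a replicate.

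The libraries held 8652040 to 37611126 counts, of which the 10 genes together took 0.00783% to 6.62%. Eif4g2 itself was lower in every flox/flox group than in its control in edgeR's quasi-likelihood test, with log2 fold changes from -2.82 in spheroids to -0.99 in Vil1(CreER) crypts, and flox/+ organoids were 0.68 below +/+ on the log2 scale. Some libraries stood apart. Crypts of the first Rosa26(CreER) flox/flox animal had the highest crypt levels in that strain of 9 of the 10 genes, all but Cd36, and it was the only animal of its group with reads of the Y-linked gene Ddx3y. Every flox/+ library of that strain had Ddx3y, at 15.8 to 30.4 CPM (read counts scaled to a common library total). Crypts and villi of flox/flox animals 3, 4 and 5 had 0. Sex as read from Ddx3y thus moves with genotype in the Rosa26(CreER) mice, and the 2 cannot be fully told apart there. The ileal gene Fabp6 had 96.1 to 505 CPM in all 9 Rosa26(CreER) crypt libraries and at most 0.116 in the matching villi. It was at or under 0.449 CPM in both libraries of the Vil1(CreER) flox/+ animals numbered 3 and 4 and at 20.4 to 1105 in the other Vil1(CreER) libraries, so the labelled groups may hold different lengths of gut. That difference moves with villus against crypt and with genotype, and its part in the results below was not tested.

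All levels here are CPM on a common scale across the 92 libraries. The villi held the most of every gene. Group means of Apoa1 ran from 24539 ± 3619 CPM (SD, n = 5) in Rosa26(CreER) flox/flox villi to 67.4 ± 33.2 (SD, n = 4) in organoids at 10 µM A-485. Apoa4 ran from 18710 ± 2955 CPM in Rosa26(CreER) flox/+ villi (SD, n = 5) to 2.79 ± 1.31 at 10 µM A-485 (SD, n = 4). Cd36, the scarcest, ran between the same 2 groups from 292 ± 92.3 to 0.323 ± 0.278 CPM (SD, n = 5 and 4). For 9 of the 10 genes the villus library with the lowest level was above every crypt, organoid and spheroid library, with a margin for Apob of 6358 against 5752 CPM. Cd36 was the exception, with 22.6 CPM in the lowest villus library and 301 in the highest library outside the villi, a flox/flox crypt.

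Organoids at 10 µM A-485 had the lowest mean of the 21 groups for 9 genes, and for Apob it was 4-OHT-treated flox/flox spheroids, at 246 ± 254 CPM (SD, n = 6). Between these ends the order of groups was loose: of the 20 pairs of neighbouring groups, only 1 to 3 per gene had libraries that did not overlap. Divided by transcript length, so that genes can be set against each other, Apoa1 led in Rosa26(CreER) flox/+ villi with 17866 ± 2288 CPM per kb (SD, n = 5), and Cd36 was the lowest of the 10 with 81.3 ± 25.7. In DMSO organoids of the first experiment Fabp1 led with 1999 ± 245 CPM per kb (SD, n = 3). At 10 µM A-485 Apob led with 262 ± 68.1 CPM per kb (SD, n = 4), and the next, Apoa1, was at 54.5.

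**Figure D1:**
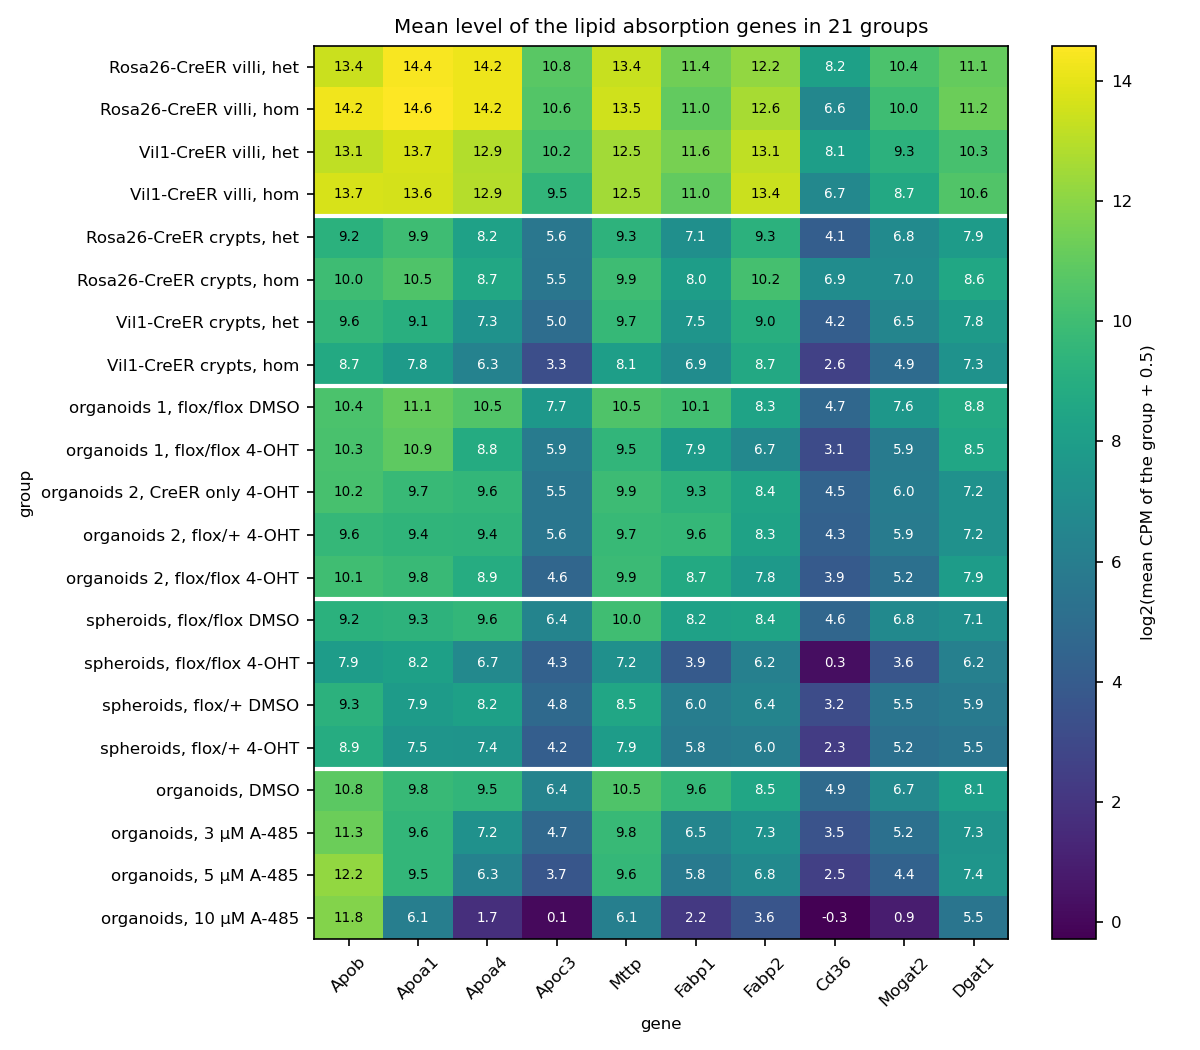
Mean level of each of the 10 genes in each of the 21 groups, as log2(mean CPM of the group + 0.5), with the value printed and coloured in each cell; het is flox/+, hom is flox/flox and CreER only is +/+. The villus groups at the top are highest for every gene but Cd36, and organoids at 10 µM A-485 at the bottom are lowest for every gene but Apob.

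Control villi were compared with control crypts of the same animals to show where along the crypt and villus axis the genes are read out. All 10 genes were higher in flox/+ villi in the Rosa26(CreER) mice and all 10 in the Vil1(CreER) mice, without overlap of libraries, where 36.4% and 32.7% of all genes tested were called higher. The share of all genes without overlap was not computed, here or below, so such counts describe the members only. In flox/+ Rosa26(CreER) crypts Apoa4 was at 270, 324, 274, 407 and 242 CPM, and in villi of the same 5 animals at 14102, 21517, 18667, 18198 and 21066. Apoa4 had the steepest step in both strains, at log2 6.02 ± 0.22 (SE, adjusted p at most 3.42e-07 for all 10 genes) and 5.69 ± 0.64. Fabp2 had the shallowest in Rosa26(CreER) mice at 2.96 ± 0.22, and Dgat1 in Vil1(CreER) mice at 2.55 ± 0.20. The median over the 10 genes was 4.19 and 4.11, beside -0.09 and -0.08 over all genes tested. These libraries are bulk, so that fewer cells of a type and less RNA per cell cannot be told apart, here and in all that follows.

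In Rosa26(CreER) crypts at day 9, 1 of the 10 genes, Cd36, rose in flox/flox animals and none fell. Of all genes tested 8.63% were called higher, so that count was near the background. Cd36 was at 59.2, 106, 301 and 16.7 CPM in 4 flox/flox crypts against 8.62, 17.2, 21.2, 26.5 and 12.6 in 5 flox/+ crypts. The fourth flox/flox library lay inside the flox/+ range, so the groups overlapped. The log2 fold change was 2.79 ± 0.71 (SE, adjusted p = 0.0242). Leaving out 1 library at a time ended the call in 5 of 9 cases, and without flox/flox replicate 4, the highest library, the estimate was 1.77 (adjusted p = 0.0628). Cd36 is also a gene of macrophages, endothelium and adipocytes. The summed level of 5 macrophage markers was 502, 911, 2091 and 43.4 CPM in the same flox/flox crypts and 19.7 to 226 in flox/+ crypts, and that of 5 endothelial markers 10.6, 26.7, 22.3 and 2.57 CPM against 2.68 to 7.70. None of the 5 macrophage and 2 testable endothelial markers was called, yet Cd36 and both sums were high in the same 3 libraries, and the part of those cells in the result was not tested. Reads of mitochondrial genes made up 13.7% to 25.2% of the counts in flox/flox crypts and 6.24% to 12.4% in flox/+ crypts, without overlap. With those genes left out of the fit the Cd36 estimate was 2.78 (adjusted p = 0.0243).

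The other 9 genes did not pass the test in these crypts. Fabp2 had a log2 fold change of 0.90 ± 0.35 (SE, adjusted p = 0.0959) and Apob of 0.71 ± 0.44 (adjusted p = 0.279). These values rest on 1 animal: Fabp2 was at 2218 CPM in the first flox/flox library and at 708 to 928 in the other 3, against 487 to 810 in flox/+ crypts. The 9 enterocyte markers also summed highest in that first library, to 11416 CPM, with 3134.5 to 4572 in the other 3. In flox/+ crypts they summed to 2612.5 to 5617. Of 6 stem cell markers 5 were called lower, at sums of 467 to 1602 CPM in flox/flox and 5791 to 9547 in flox/+ crypts. All 6 Paneth cell markers and 2 of 5 goblet cell markers were called lower too. The part of all these markers in the result was not tested. Without the first flox/flox library the Apob estimate was 0.07 and that of Fabp2 0.38, while Cd36 stayed at 2.99 (adjusted p = 0.0284). With Ddx3y as a covariate Cd36 was not called (1.80, adjusted p = 0.259) and the 9 others were called higher, a fit in which that same library alone links the flox/flox crypts to the flox/+ ones in Ddx3y.

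In the villi of the same mice 1 of the 10 genes, Apob, was called higher and 1, Mogat2, lower, both narrowly. Neither count stood above the share of all genes called, given below. Apob was at 11122, 15436, 21513, 29469 and 19774 CPM in flox/flox villi and at 6358, 11502, 9751, 12118 and 13922 in flox/+ villi, a log2 fold change of 0.78 ± 0.28 (SE, adjusted p = 0.0462, 15.0% of all genes tested called higher). Mogat2 was at 1149, 1148, 994, 986 and 783 CPM against 1438, 1472, 963, 1534 and 1254, at -0.47 ± 0.14 (adjusted p = 0.0266, 18.2% of all genes called lower). Both pairs of groups overlapped. Leaving out 1 library at a time ended each call in 7 of 10 cases, and with Ddx3y as a covariate, whose reads were absent from 3 of 5 flox/flox villi, Apob was at 0.22 (adjusted p = 0.63) and Mogat2 at -0.29 (adjusted p = 0.276). Markers moved with genotype here too. The 9 enterocyte markers summed to 60895 to 76786 CPM in flox/flox and 36389 to 63672 in flox/+ villi, with 3 called higher and 1 lower, and of 6 pan-epithelial markers 3 were called higher and 1 lower. Of 4 lymphocyte markers 3 were called lower, at summed levels of 55.3 to 83.5 against 109 to 302 CPM. Of 4 testable endothelial markers 1 was called higher, and of 5 goblet cell markers 1 was called lower. Their part in the result was not tested.

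Cd36 in these villi was at 73.8, 30.9, 22.6, 105 and 242 CPM against 219, 382, 173, 318 and 368, and did not pass the test (-1.68 ± 0.61, SE, adjusted p = 0.0574). Its direction was opposite to that in crypts, and the difference between the genotype effects was itself called, at -4.35 ± 0.94 (SE, adjusted p = 0.00935, with 4.86% of all genes called lower in that test). With the animal as a block its adjusted p was 0.0685.

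Crypts of Vil1(CreER) mice at 3 months had lower levels of 3 of the 10 genes in flox/flox animals, where 17.7% of all genes tested were called lower, and none was higher. Mttp was at 240, 215 and 343 CPM in 3 flox/flox crypts and at 905, 356, 898 and 1096 in 4 flox/+ crypts. Mogat2 was at 29.5, 24.1 and 33.9 against 101, 52.4, 82.1 and 118, and Cd36 at 4.65, 6.10 and 5.50 against 14.9, 10.1, 14.9 and 30.1. No library of either genotype crossed into the other for these 3 genes. The log2 fold changes were -1.65 ± 0.41 for Mttp (SE, adjusted p = 0.0246), -1.63 ± 0.30 for Mogat2 (adjusted p = 0.00707) and -1.72 ± 0.38 for Cd36 (adjusted p = 0.0127).

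Apoc3 had the largest estimate in these crypts without passing the test, at -1.86 ± 0.66 (SE, adjusted p = 0.0828), and all 10 estimates were below 0, with a median of -1.16 beside 0.01 over all genes. The second flox/+ animal had the lowest flox/+ level of all 10 genes. Without it 7 were called lower, in a fit whose share of all genes is not given here. The Mttp call was lost in 5 of 7 cases when 1 library was left out, with an adjusted p of up to 0.0914. Without flox/flox replicate 1 only Mogat2 was called, with Cd36 at an adjusted p of 0.061. A list of 9 enterocyte markers moved with these genes: its summed level was 1506 to 2790 CPM in flox/flox and 2975 to 5772 in flox/+ crypts, and 7 of the 9 were called lower. Macrophage markers, 5 of 5, were called higher, at summed levels of 41.7 to 67.2 against 10.1 to 25.8 CPM. Of 6 stem cell markers 4 were called lower, at summed levels of 775 to 1184 against 6987 to 7649 CPM. So were 6 of 6 Paneth cell and 3 of 5 goblet cell markers. Their part in the result was not tested. Mitochondrial genes took 30.4% to 40.3% of the counts in flox/flox and 17.5% to 30.8% in flox/+ crypts. With them left out the same 3 genes were called, at adjusted p of 0.0263 for Mttp, 0.00755 for Mogat2 and 0.0137 for Cd36.

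In Vil1(CreER) villi 4 genes fell in flox/flox animals, where 21.6% of all genes tested were called lower, and none rose. Cd36 was at 206, 206, 229 and 438 CPM in flox/+ villi, and its lowest, median and highest levels in 6 flox/flox villi were 64.5, 98.1 and 166, without overlap. Its log2 fold change was -1.46 ± 0.28 (SE, adjusted p = 0.00145). Mogat2 was at 668, 510, 624 and 683 CPM in flox/+ villi and at 328 to 546 in flox/flox villi (-0.63 ± 0.15, adjusted p = 0.00482), with the groups just overlapping. Apoc3, an inhibitor of lipoprotein lipase once the particle is secreted, was at 1012 to 1354 CPM against 463 to 1150 (-0.78 ± 0.23, adjusted p = 0.016), and Fabp1 at 2440 to 3690 against 1432 to 2655 (-0.57 ± 0.20, adjusted p = 0.031). The Fabp1 call was lost in 4 of 10 cases with 1 library left out, with an adjusted p of up to 0.111 without flox/+ replicate 1. Markers of other cells moved in the same libraries, in both directions. The 5 goblet cell markers, all called lower, summed to 1385 to 2387 CPM in flox/flox and 7648 to 12526 in flox/+ villi. Of 4 lymphocyte markers 3 were called lower, at 34.7 to 146 against 216 to 383 CPM, and 4 of 5 Paneth cell markers were. Of 6 pan-epithelial markers 4 were called higher and 1 lower, and of 9 enterocyte markers 1 was higher and 2 were lower. Called higher, with none lower, were 2 of 4 testable stromal, 1 of 5 macrophage and 1 of 2 testable endothelial markers. The same held for 1 of 2 ileal and 1 of 2 testable proximal markers, while 2 of 2 testable lymphatic endothelial markers were called lower. Their part in the result was not tested.

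Apob, Mttp and Dgat1 were among the 6 genes that did not pass the test in these villi. Apob was at 7992 to 9640 CPM in flox/+ villi and at 9140, 12286 and 20578 (lowest, median and highest) in flox/flox villi, with a log2 fold change of 0.51 ± 0.22 (SE, adjusted p = 0.0715). Mttp was at -0.06 ± 0.18 (adjusted p = 0.827) and Dgat1 at 0.26 ± 0.14 (adjusted p = 0.137). Villus and crypt differed for Mttp, Mogat2, Apob and Dgat1: the genotype effect in villi was above that in crypts by 1.62 ± 0.41, 1.03 ± 0.31, 1.39 ± 0.43 and 0.84 ± 0.24 on the log2 scale (SE, adjusted p from 0.0155 to 0.0373, with 9.38% of all genes called higher in that test). With the animal as a block the adjusted p was 0.0932 for Apob and 0.0669 for Dgat1, which left 2 called. Leaving out 1 library lost the Apob call in 9 of 17 cases and those of Dgat1 and Mogat2 in 5 each.

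**Figure D2:**
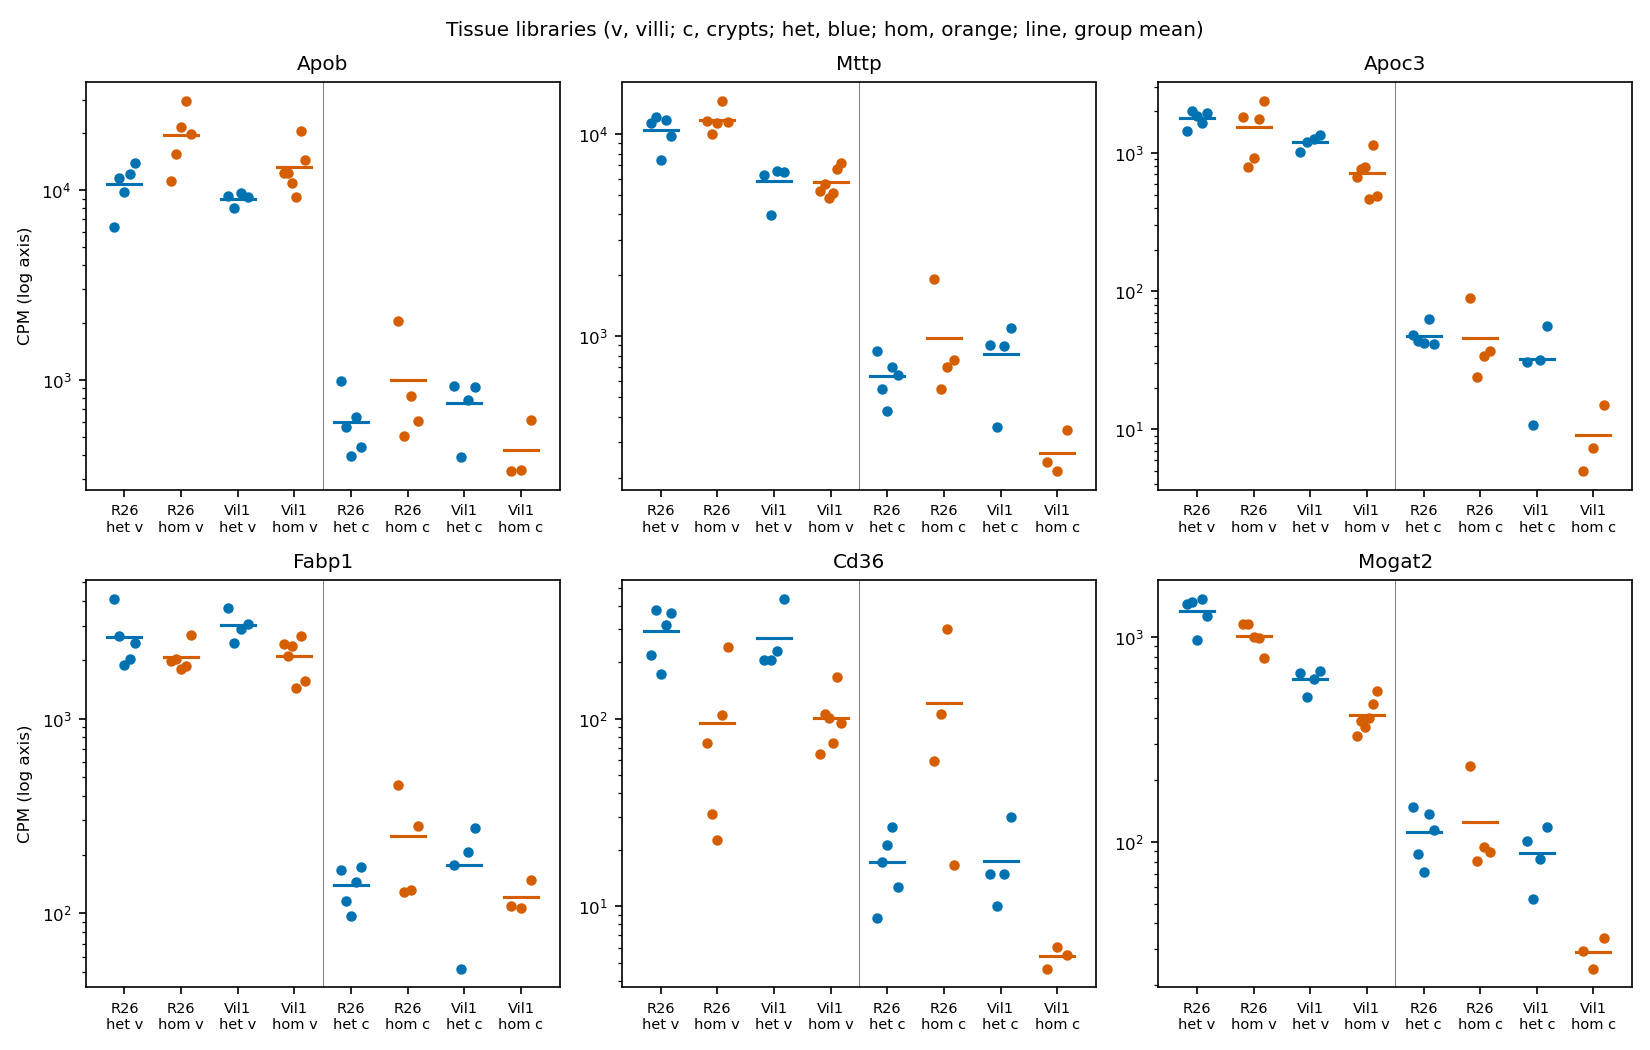
CPM of Apob, Mttp, Apoc3, Fabp1, Cd36 and Mogat2 in each villus (v) and crypt (c) library on log axes, by CreER strain (R26 is Rosa26) and genotype (het is flox/+, hom is flox/flox), with a line at each group mean. Cd36 lies below every flox/+ library in Vil1(CreER) flox/flox crypts and villi, and runs from 16.7 to 301 CPM in Rosa26(CreER) flox/flox crypts.

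In cultured organoids, 4-OHT lowered 7 of the 10 genes in the 3 flox/flox lines, where 17.2% of all genes tested were called lower. The 7 were lower in 3 of 3 lines without overlap of groups, and the share of all genes without overlap was not computed. Fabp1 fell most. It was at 1010, 1046 and 1260 CPM with DMSO and at 130, 267 and 300 with 4-OHT in lines S6070, S6072 and S2080, a log2 fold change of -2.25 ± 0.31 (SE, adjusted p = 0.00192). Fabp2 went from 250, 246 and 479 to 55.1, 89.2 and 157 (-1.70 ± 0.42, adjusted p = 0.0192), and Cd36 from 21.1, 22.2 and 31.4 to 7.41, 9.23 and 8.07 (-1.60 ± 0.18, adjusted p = 0.00104). Line S6070 had the lowest level with 4-OHT of these 3 genes. Without the 4-OHT library of S6072 the adjusted p of Fabp2 was 0.059.

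Of the acyltransferases, Mogat2 fell from 172, 171 and 229 to 39.5, 62.6 and 79.4 CPM (-1.66 ± 0.26, SE, adjusted p = 0.00313), whereas Dgat1 did not pass the test (-0.28 ± 0.15, adjusted p = 0.185). The particle genes split as well. Apoa4 went from 1381, 1223 and 1889 to 230, 450 and 696 CPM (-1.71 ± 0.39, adjusted p = 0.013), Apoc3 from 169, 196 and 239 to 35.6, 78.5 and 66.2 (-1.75 ± 0.29, adjusted p = 0.00375) and Mttp from 1320, 1210 and 1793 to 514, 771 and 913 (-0.98 ± 0.24, adjusted p = 0.0176). Mttp had an adjusted p of 0.0513 without the DMSO library of S2080. Apob and Apoa1 did not follow them: Apob was at 1178, 1189 and 1551 CPM with DMSO and 1064, 1235 and 1470 with 4-OHT (-0.06 ± 0.16, adjusted p = 0.805), and Apoa1 at 1800, 1898 and 2734 against 1618, 2135 and 1932 (-0.18 ± 0.19, adjusted p = 0.48). Apoa1, Apoc3 and Apoa4 are neighbours on chromosome 9; Apoa1 overlapped between treatments and the other 2 did not.

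Of 9 enterocyte markers 6 were called lower here and 1 higher, their summed level being 7788 to 9844 CPM with DMSO and 4407 to 6870 with 4-OHT. All 6 stem cell markers were lower too, at 1664 to 1996 against 511 to 574 CPM. The part of such shifts in the members' fall was not tested. Fitted together with the A-485 organoids, 4 members were called lower.

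The second organoid experiment, in which every culture had 4-OHT, gave smaller differences. Against flox/+ organoids 3 of the 10 genes were lower in flox/flox (24.3% of all genes tested called lower) and against +/+ organoids 4 (23.5%). The first count was near the background, and both comparisons share the 4 flox/flox libraries. Fabp1 was at 349, 365, 490 and 498 CPM in flox/flox, at 933, 872, 769 and 536 in flox/+ and at 525, 590, 823 and 616 in +/+ organoids. Its log2 fold change was -0.89 ± 0.20 against flox/+ (SE, adjusted p = 0.00468) and -0.59 ± 0.20 against +/+ (adjusted p = 0.0345), with no overlap in either. Fabp2 was at 177, 177, 274 and 241 CPM, 397, 330, 255 and 250, and 387, 332, 367 and 285 in the same order of genotypes (-0.52 ± 0.19, adjusted p = 0.0424, and -0.67 ± 0.19, adjusted p = 0.0141).

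Apoc3 was at 15.7, 22.8, 27.9 and 30.7 CPM in flox/flox, 57.4, 53.4, 43.1 and 32.4 in flox/+ and 29.6, 31.0, 77.5 and 46.6 in +/+ organoids (-0.95 ± 0.35, SE, adjusted p = 0.0463, and -0.94 ± 0.35, adjusted p = 0.0495). The fourth was Mogat2, at 26.4, 28.0, 41.4 and 50.2 CPM in flox/flox and 52.2 to 76.8 in +/+ (-0.76 ± 0.27, adjusted p = 0.0429). Against flox/+ Mogat2 did not pass the test (-0.69 ± 0.27, adjusted p = 0.0634), nor did Cd36 in either comparison (-0.41, adjusted p = 0.231, and -0.56, adjusted p = 0.107). Of the members 4 had estimates above 0 against flox/+ and 2 against +/+. Dgat1 had the highest, at 0.66 ± 0.26 and 0.68 ± 0.26 (adjusted p = 0.0572 and 0.053). Its flox/flox levels of 189, 200, 256 and 319 CPM lay above all 4 +/+ cultures, at 127 to 175, and overlapped the flox/+ cultures, at 103 to 225.

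Between flox/+ and +/+ organoids none of the 10 genes was called, none had an unadjusted p under 0.05, and 0.113% of all genes tested were called in either direction. The members' estimates there ran from -0.63 to 0.29. Several of these calls were close to the threshold, and the counts of 3 and 4 ranged from 1 to 4 and from 1 to 3 when 1 library was left out. Apoc3 lost its call in 7 of 8 cases against flox/+ and in 6 of 8 against +/+, Mogat2 in 7 of 8, Fabp2 against flox/+ in 5 of 8 and Fabp1 against +/+ in 5 of 8. The highest adjusted p among these was 0.132, for Apoc3 without +/+ replicate 3. The 6 stem cell markers were called lower in both flox/flox comparisons. Of the 9 enterocyte markers 3 were called lower and 1 higher against flox/+, and 4 lower and none higher against +/+. Their summed levels overlapped, at 4285 to 6347 CPM in flox/flox, 3617 to 6569 in flox/+ and 4670 to 7039 in +/+ organoids. The part of these markers in the result was not tested.

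**Figure D3:**
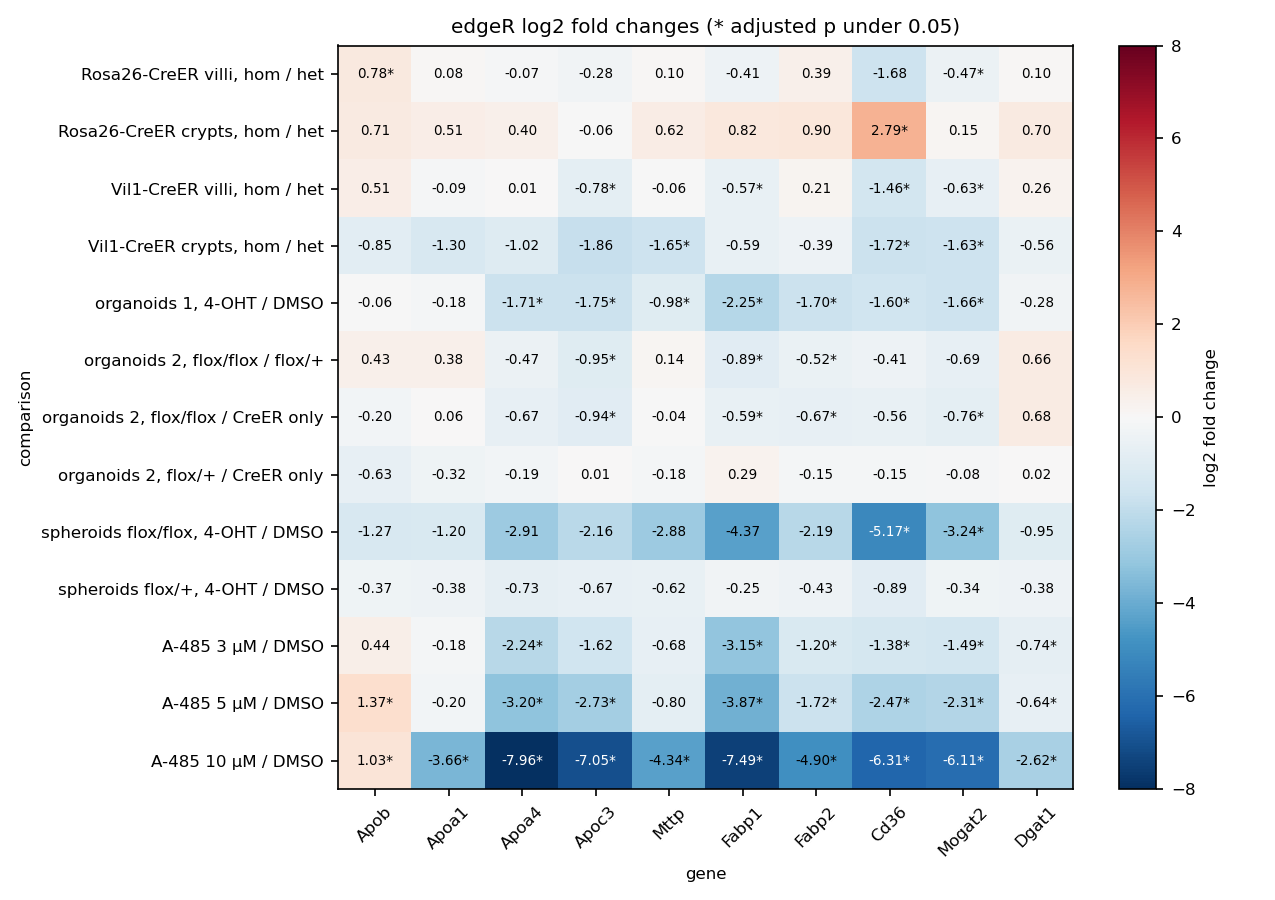
Log2 fold change of each of the 10 genes in 13 tissue, organoid, spheroid and A-485 comparisons (edgeR), printed and coloured in each cell; an asterisk marks an adjusted p under 0.05, het is flox/+, hom is flox/flox and CreER only is +/+. Fabp1, Fabp2, Cd36, Mogat2, Apoa4 and Apoc3 are below 0 in the flox/flox and A-485 culture comparisons, and Apob is called higher at 5 and 10 µM A-485.

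Fetal spheroids differed widely from line to line before any deletion. In the 6 flox/flox lines with DMSO, S9484-D, S9488-F, S9484-A, S9488-D, S9488-H and S9020-A in that order, Apoa4 was at 2038, 56.9, 442, 72.2, 1616 and 319 CPM. In the 5 flox/+ lines it ran from 0.979 to 732. Against flox/+ organoids of the second experiment, flox/+ spheroids with 4-OHT had lower Dgat1 (-1.72 ± 0.48, SE, adjusted p = 0.0162) and Fabp1 (-3.80 ± 1.35, adjusted p = 0.0434). Of all genes 22.8% were called lower, so 2 of the 10 members was not above the background. The Fabp1 call was lost in 7 of 9 cases with 1 library left out, with an adjusted p of up to 0.0776 without flox/+ organoid replicate 2. All 10 estimates were below 0, among them Apoa4 at -1.92 and Apob at -0.65, which did not pass the test.

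After 4-OHT, 2 of the 10 genes were called lower in flox/flox spheroids, where 10.0% of all genes tested were called lower. Cd36 went from 39.6, 14.7, 0.332, 9.43, 74.7 and 7.36 CPM to 3.24, 0.297, 0.209, 0, 0.398 and 0.135 in the same order of lines, a log2 fold change of -5.17 ± 1.30 (SE, adjusted p = 0.00876). Mogat2 went from 202, 35.1, 79.9, 55.4, 210 and 76.9 to 23.1, 2.44, 38.3, 0.816, 3.85 and 2.89 (-3.24 ± 0.81, adjusted p = 0.00815). Cd36, Mogat2, Fabp1, Apoa4, Apoc3 and Mttp were lower in 6 of 6 lines, and Apoa1, Apob, Fabp2 and Dgat1 in 5 of 6. In S9484-A some falls were slight. Cd36 had 7 reads there with DMSO and 4 with 4-OHT, Fabp1 was at 24.95 and 23.01 CPM and Mttp at 508 and 470.

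With the line as a block, as the labels pair the libraries, 7 genes were called lower. More genes were called over all in that fit too, and their share called lower is not given here. Fabp1 was then at -5.66 (adjusted p = 0.029), Apoa4 at -5.12 (adjusted p = 0.0323), Apoc3 at -4.29 (adjusted p = 0.0473), Mttp at -4.19 (adjusted p = 0.0253) and Fabp2 at -4.19 (adjusted p = 0.0479). Apoa1 (adjusted p = 0.0939), Apob (adjusted p = 0.0638) and Dgat1 (adjusted p = 0.131) were not called. Unblocked, these 8 genes had estimates from -4.37 (Fabp1, adjusted p = 0.0586) to -0.95 (Dgat1).

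The lines were unequal. Apoa1 went from 1048, 225, 419, 226, 1488 and 438 CPM with DMSO to 540, 1.60, 1131, 1.16, 15.8 and 27.4 with 4-OHT. Lines S9484-D and S9484-A thus kept 540 and 1131 CPM, and S9484-A was the line in which Apoa1, Apob, Fabp2 and Dgat1 were higher, while the other 4 lines were at or under 27.4 CPM. Apob went from 846, 242, 302, 341, 903 and 875 to 364, 40.1, 690, 42.0, 80.1 and 257 CPM. The summed enterocyte markers showed the same spread with 4-OHT, from 22.2 to 8446 CPM, and their part in the result was not tested.

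In the 5 flox/+ spheroid lines none of the 10 genes was called with 4-OHT by edgeR's quasi-likelihood test, none had an unadjusted p under 0.05, and 0.0% of all genes tested were called. With the line as a block none was called either. All 10 estimates were below 0, from -0.89 for Cd36 to -0.25 for Fabp1. Apoa4, Apob, Apoc3, Mttp, Dgat1 and Mogat2 were lower in 5 of 5 lines, Apoa1, Fabp1 and Fabp2 in 4 and Cd36 in 3. Mogat2 was at 22.1, 27.6, 22.0, 77.3 and 74.4 CPM with DMSO and at 14.3, 18.9, 18.4, 66.0 and 60.8 with 4-OHT, and lines S9612-A and S9020-C were the high ones under both. The direct test of 4-OHT-treated flox/flox against flox/+ spheroids called no member either (Cd36 -2.73, adjusted p = 0.165; Mogat2 -1.61, adjusted p = 0.21), with 10.5% of all genes called in either direction. Without the 4-OHT library of S9484-D Cd36 was called (-4.45, adjusted p = 0.0407), and without that of S9484-A Mogat2 was (-2.45, adjusted p = 0.0475). The difference between the 4-OHT effects of the 2 genotypes was not called without the block (Cd36 -4.28, adjusted p = 0.234, and Mogat2 -2.91, adjusted p = 0.221, with 1.62% of all genes called). It was called for both with the line as a block, at -4.45 (adjusted p = 0.013) and -3.64 (adjusted p = 0.0126).

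**Figure D4:**
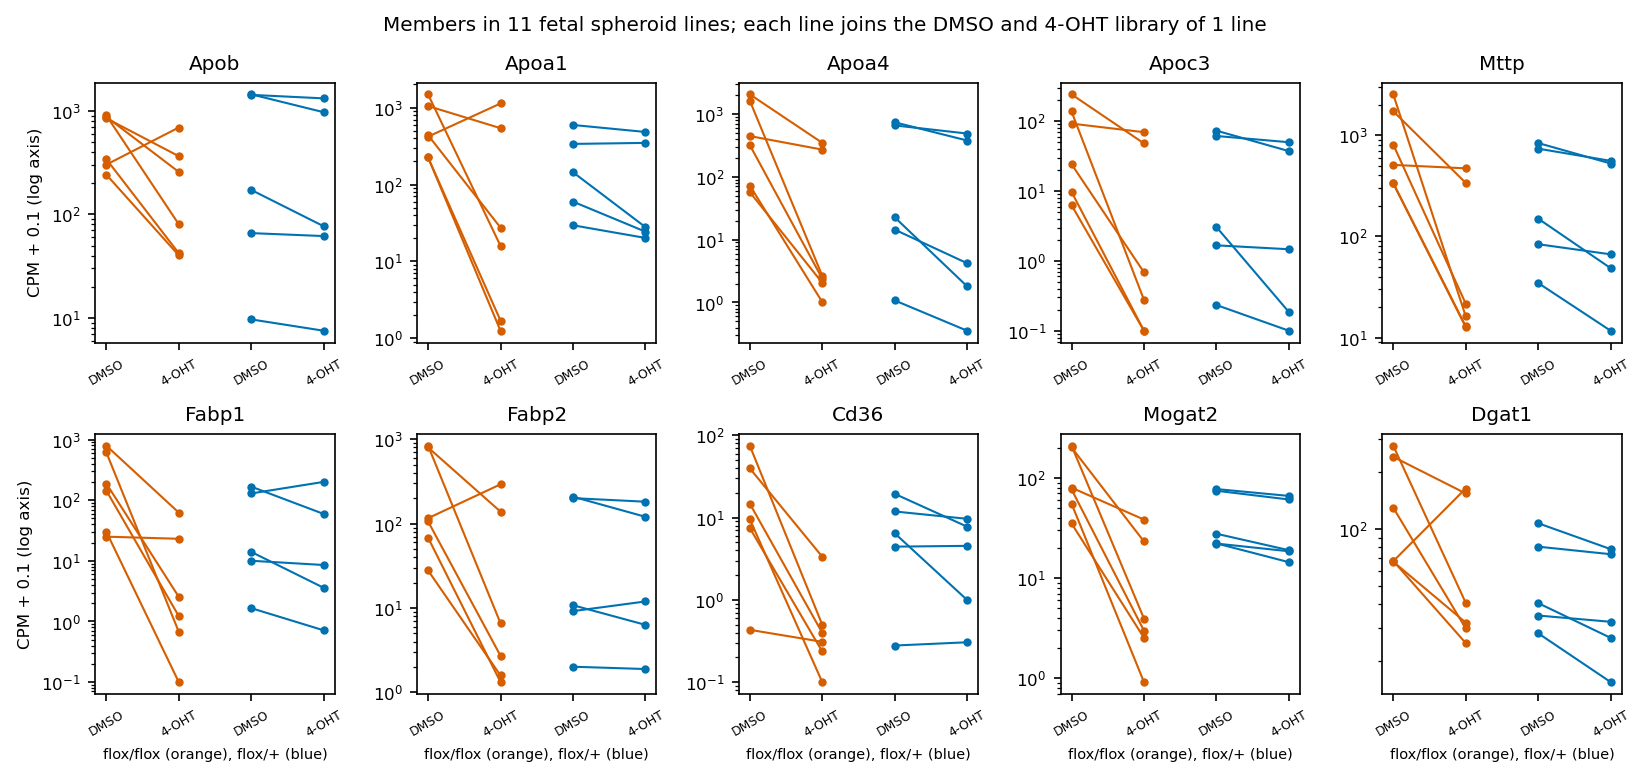
CPM of the 10 genes in each fetal spheroid line with DMSO and 4-OHT, joined by line, on log axes with a small constant added as the axis gives it; flox/flox lines are orange and flox/+ lines blue. Mogat2 falls in all 6 flox/flox lines, whereas Apob, Apoa1, Fabp2 and Dgat1 are higher with 4-OHT in 1 of them, S9484-A.

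A-485 gave the widest range of any treatment, and it moved Apob against the other members. The 3 doses share the 4 DMSO libraries, given here in the order S6026, S6070, S6074 and S6076. Apob was at 1239, 2150, 1932 and 1963 CPM with DMSO, at 2045, 2435, 2154 and 3107 with 3 µM, at 3476, 4493, 4866 and 5752 with 5 µM and at 2423, 3459, 4101 and 4626 with 10 µM. It was above DMSO in 4 of 4 lines at each dose, and at 5 and 10 µM every treated library was above every DMSO library. The log2 fold change was 0.44 ± 0.21 at 3 µM (SE, adjusted p = 0.165), 1.37 ± 0.22 at 5 µM (adjusted p = 5.32e-05, 24.4% of all genes called higher) and 1.03 ± 0.22 at 10 µM (adjusted p = 0.000447, 29.4%). With the line as a block the 3 µM rise was called (0.45, adjusted p = 0.00615).

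The other 9 genes fell or did not pass the test. At 3 µM 6 were lower (8.42% of all genes tested called lower), at 5 µM 7 (25.1%) and at 10 µM 9 (32.6%), and at 10 µM none of the 9 overlapped with DMSO. With the line as a block, 8 were lower at 3 µM and 8 at 5 µM, without the shares of all genes in those fits. The share of all genes without overlap was not computed. Without the 3 µM library of S6026, or the DMSO library of S6074, 3 were lower at 3 µM. Dgat1 lost its call in 5 of 8 such cases at 3 µM and in 4 of 8 at 5 µM, Cd36 in 4 of 8 and Fabp1 in 3 of 8 at 3 µM. The members' medians were -1.29, -2.02 and -5.51 at the 3 doses, beside 0.00, -0.02 and -0.05 over all genes.

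Of the fatty acid handling genes, Fabp1 went from 461, 916, 957 and 844 CPM to 47.4, 109, 184 and 13.9 at 3 µM, 18.7, 82.6, 90.4 and 24.9 at 5 µM and 0.628, 8.25, 7.66 and 0 at 10 µM. Its log2 fold changes were -3.15 ± 0.88 (SE, adjusted p = 0.0235), -3.87 ± 0.91 (adjusted p = 0.00316) and -7.49 ± 1.10 (adjusted p = 4.82e-05). Cd36 went from 18.4, 36.9, 29.4 and 31.2 CPM to 0.189, 0.594, 0.511 and 0 at 10 µM, which is 3, 10, 9 and 0 reads (-6.31 ± 0.60, adjusted p = 6.45e-08). Fabp2 went from 235, 504, 341 and 354 to 10.2, 18.2, 11.6 and 7.08 (-4.90 ± 0.36, adjusted p = 7.03e-09). S6026, the one +/+ line, had the lowest DMSO level of all 10 genes, and its own ratios had the sign of the other lines at 10 µM for all 10.

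The acyltransferases fell at every dose but by different sizes. Mogat2 was at -1.49 ± 0.36 with 3 µM, -2.31 ± 0.37 with 5 µM and -6.11 ± 0.47 with 10 µM (log2 ± SE, adjusted p = 0.00801, 7.94e-05 and 1.11e-08). Dgat1 was at -0.74 ± 0.23, -0.64 ± 0.23 and -2.62 ± 0.24 (adjusted p = 0.0298, 0.0266 and 5.27e-08). At 10 µM Mogat2 was at 1.76, 2.26, 1.42 and 0.187 CPM, and Dgat1 at 48.9, 51.4, 43.8 and 31.3.

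Among the particle genes Apoa4 fell at every dose, from 377, 954, 770 and 798 CPM to 57.4, 163, 260 and 124 at 3 µM, 28.6, 95.4, 150 and 39.3 at 5 µM and 1.63, 3.92, 3.92 and 1.68 at 10 µM (-7.96 ± 0.70, SE, adjusted p = 1.21e-07). Apoc3 did not pass at 3 µM (-1.62, adjusted p = 0.0868), where it was called with the line as a block (adjusted p = 0.0023), and fell at 5 µM (-2.73 ± 0.66, adjusted p = 0.00302) and 10 µM (-7.05 ± 0.88, adjusted p = 4.98e-06). Apoa1 and Mttp passed the unblocked test at 10 µM and at neither lower dose. Apoa1 was at 583, 1085, 937 and 857 CPM with DMSO, at 415, 823, 1098 and 691 with 3 µM, at 399, 919, 1260 and 411 with 5 µM and at 62.6, 106, 75.1 and 25.8 with 10 µM. Its estimates were -0.18 (adjusted p = 0.819) and -0.20 (adjusted p = 0.72) at the lower doses and -3.66 ± 0.47 (SE, adjusted p = 6.02e-06) at 10 µM. Mttp was at -0.68 (adjusted p = 0.16), -0.80 (adjusted p = 0.0515) and -4.34 ± 0.37 (adjusted p = 5.85e-08), and with the line as a block it was called at 3 µM (adjusted p = 0.0175) and 5 µM (adjusted p = 0.00238).

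The doses were also tested against each other. From 3 to 5 µM only Apob was called, higher by 0.93 ± 0.21 (SE, adjusted p = 0.00421, 11.5% of all genes called higher), and Cd36 (-1.09, adjusted p = 0.0864) and Apoc3 (-1.11, adjusted p = 0.234) were not. With the line as a block 5 members were lower over that step, without the share of all genes in that fit. From 5 to 10 µM 9 of the 10 were lower (12.4% of all genes called lower), with log2 fold changes from -1.98 for Dgat1 to -4.76 for Apoa4, with Apoa1 at -3.46 ± 0.46. Fabp1 missed the threshold, with an adjusted p of 0.05, when the 5 µM library of S6074 was left out. Apob did not pass (-0.34 ± 0.21, adjusted p = 0.315), though it was lower in 4 of 4 lines and called with the line as a block (-0.35, adjusted p = 0.0257).

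Epithelial cell types shifted with the doses. The 9 enterocyte markers summed to 5802 to 10106 CPM with DMSO, 2425 to 5244 at 3 µM, 2089 to 4674 at 5 µM and 355 to 638 at 10 µM, and 5, 5 and 9 of them were called lower. The 6 stem cell markers fell from 7210 to 8378 CPM with DMSO to 453 to 529 at 10 µM, where all 6 were called lower. The 5 goblet cell markers summed to 3387 to 4928 CPM with DMSO and to 5147 to 11294 at 3 µM, where 2 were called higher and none lower. They summed to 2996 to 5250 at 5 µM, with 1 called higher and 1 lower, and to 187 to 429 at 10 µM, where all 5 were called lower. The 6 pan-epithelial markers rose instead. They summed to 5253 to 5564 CPM with DMSO and to 5631 to 6910 at 3 µM. At 5 µM the sums were 7395.5 to 8842, and at 10 µM 8036 to 10352. Of these 6, 2 were called higher at 3 µM, 3 at 5 µM and 4 at 10 µM, and none lower. The part of all these shifts in the members' changes, the rise of Apob included, was not tested.

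**Figure D5:**
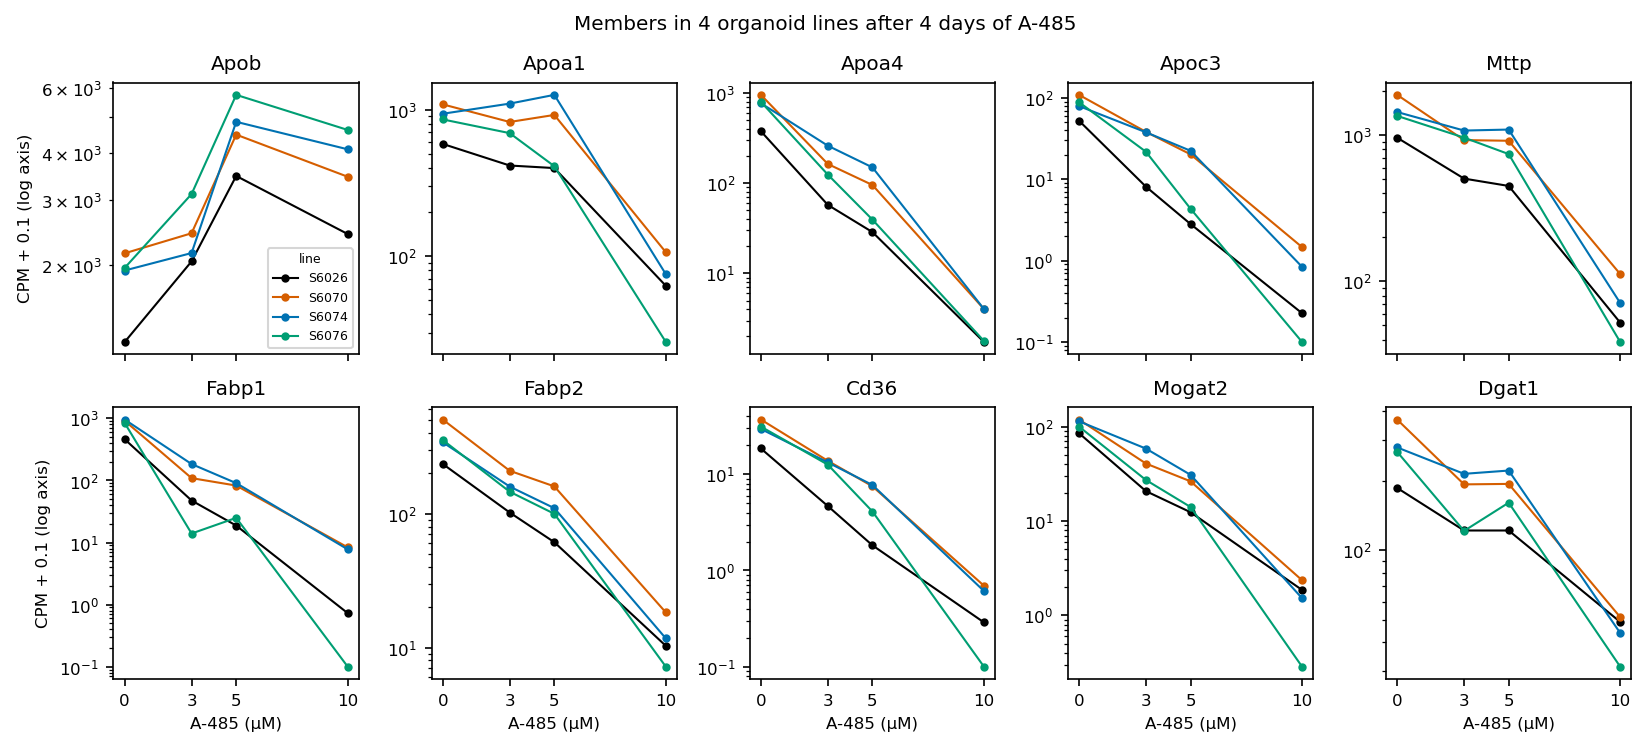
CPM of the 10 genes in the 4 organoid lines against the A-485 dose in µM (0 is DMSO), joined by line, on log axes with a small constant added as the axis gives it. Apob rises to 5 µM in every line and stays above DMSO at 10 µM, while the other 9 genes end below their DMSO levels.

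The promoter stretches of Apob, which rose with A-485, and of Fabp1 and Fabp2, which fell, are printed to set the genes that parted beside each other. They are RefSeq sequence of GRCm38.p6 on the plus strand, each ending at the last base before the start of the gene in the count tables, at chr12:7977427-7977647, chr6:71199629-71199826 and chr3:122894822-122895071. Capitals mark matches on either strand to a TATA box, searched as TATAAA, to the motif of GATA factors, searched as GATAA, or to an HNF4-type motif, searched as CAAAGNNCA; no match overlapped another.
Apob: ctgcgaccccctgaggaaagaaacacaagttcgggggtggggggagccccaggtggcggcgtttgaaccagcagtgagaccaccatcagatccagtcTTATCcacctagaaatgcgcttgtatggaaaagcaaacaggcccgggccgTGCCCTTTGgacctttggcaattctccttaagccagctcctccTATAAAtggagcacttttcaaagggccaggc
Fabp1: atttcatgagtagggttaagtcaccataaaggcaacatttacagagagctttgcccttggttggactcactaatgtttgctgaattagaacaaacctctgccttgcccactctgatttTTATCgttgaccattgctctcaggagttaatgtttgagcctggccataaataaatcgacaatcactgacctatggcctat
Fabp2: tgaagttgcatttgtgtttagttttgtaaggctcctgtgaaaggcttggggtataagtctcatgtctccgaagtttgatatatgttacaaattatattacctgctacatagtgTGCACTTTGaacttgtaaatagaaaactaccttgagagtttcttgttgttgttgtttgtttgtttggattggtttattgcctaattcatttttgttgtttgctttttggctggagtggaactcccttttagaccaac
Apob held all 3 motifs, with the TATA box on the plus strand 25 bases before the end, and the HNF4-type and GATA motifs on the minus strand 65 and 119 bases before it. Fabp1 held a GATA motif and Fabp2 an HNF4-type motif, both on the minus strand. Among 32851 promoter windows of 250 bases, 12.4% held the TATA box letters, 22.6% the GATA motif and 5.49% the HNF4-type motif, and a match does not show that a factor binds. Of the 10 genes, 7 were in the RefSeq promoter table, and 4 had a start within 60 bases of that in the count tables; the fourth, Apoa1, held none of the 3 motifs in its 200 bases. The windows behind the shares end at the RefSeq start. The stretches read here stop 29 bases before it for Apob, 52 for Fabp1, 50 for Apoa1 and 0 for Fabp2. Bases between were not searched, so a missing motif cannot be set against those shares.

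The genes themselves lie at separate places, apart from the Apoa1, Apoc3 and Apoa4 cluster at 46228580 to 46230466 (plus strand), 46232933 to 46235636 (minus strand) and 46240696 to 46243459 (plus strand) of chromosome 9 in GRCm38. Apob spans chromosome 12 from 7977648 to 8016835, Mttp chromosome 3 from 138089854 to 138144968 and Fabp2 the same chromosome from 122895072 to 122899506. Fabp1 lies on chromosome 6 from 71199827 to 71205023, Cd36 on 5 from 17781690 to 17888801, Mogat2 on 7 from 99219084 to 99238619 and Dgat1 on 15 from 76502015 to 76511953.

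A wider list of 68 genes of lipid absorption was read beside the members, with 61 to 65 of them testable. In control villi 51 of 64 were higher than in crypts in the Rosa26(CreER) mice and 45 of 64 in the Vil1(CreER) mice, and 8 were lower in each. Of all genes tested, 36.4% and 32.7% were higher and 40.6% and 35.2% lower. Cidec, a lipid droplet fusion protein, had the largest rise among the better expressed genes (4.98 ± 0.20 and 4.69 ± 0.36, log2 ± SE, adjusted p = 1.89e-09 and 4.93e-06), and Soat1, a cholesterol esterifying enzyme, the largest fall (-2.40 ± 0.16 and -3.33 ± 0.13, adjusted p = 4.29e-08 and 8.66e-08). With Eif4g2 deleted, 4 rose and 9 fell of 63 in Rosa26(CreER) crypts, 6 and 15 of 64 in the villi, 5 and 27 of 64 in Vil1(CreER) crypts and 10 and 20 of 65 in the villi. The shares of the list that fell were 14.3%, 23.4%, 42.2% and 30.8%, beside 11.6%, 18.2%, 17.7% and 21.6% of all genes tested, so that in Rosa26(CreER) crypts the list was close to the background. The shares that rose, 6.35%, 9.38%, 7.81% and 15.4%, lay below those of all genes, at 8.63%, 15.0%, 11.6% and 20.9%. Acsl3, an acyl-CoA synthetase, rose most in both villi (1.12 ± 0.25, adjusted p = 0.00629, and 2.20 ± 0.30, adjusted p = 0.000128).

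In flox/flox organoids of the first experiment 2 rose and 32 fell of 63 with 4-OHT, among them Slc27a2, a fatty acid transporter with synthetase activity (-2.36 ± 0.28, SE, adjusted p = 0.00124), and 6 of 11 genes of fatty acid uptake and activation. That is 50.8% of the list lower, beside 17.2% of all genes tested. In the second experiment 9 rose and 16 fell of 63 against flox/+ and 7 and 20 against +/+. The shares that fell, 25.4% and 31.7%, stood beside 24.3% and 23.5% of all genes, the first of them near the background. Soat1 fell most in both (-1.81 ± 0.09 and -2.01 ± 0.10, adjusted p = 3.49e-09 and 1.11e-09). In flox/flox spheroids none rose and 14 fell of 63, Dgat2, the second diacylglycerol acyltransferase, falling most (-2.48 ± 0.42, adjusted p = 0.000391), and in flox/+ spheroids none was called. The share lower in flox/flox spheroids was 22.2%, beside 10.0% of all genes.

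With A-485, 1 rose and 15 fell of 61 at 3 µM, 12 and 22 at 5 µM, and 13 and 38 at 10 µM. The shares of the list that fell were 24.6%, 36.1% and 62.3%, beside 8.42%, 25.1% and 32.6% of all genes tested. Those that rose were 1.64%, 19.7% and 21.3%, beside 10.8%, 24.4% and 29.4%. Uptake and activation genes gave 6, 8 and 9 of the falls out of 10 tested, and no rise. Fabp5, a further fatty acid binding protein, fell most at 5 µM (-2.39 ± 0.18, SE, adjusted p = 9e-09) and Apobec1, the editing enzyme of the Apob transcript, rose most there (1.24 ± 0.29, adjusted p = 0.00187). At 10 µM, 9 of 12 regulators fell, with Creb3l3, a transcription factor of lipid genes, at -5.22 ± 0.49 (adjusted p = 2.08e-07), and Abhd5, the coactivator of triglyceride lipase, rose most (1.02 ± 0.21, adjusted p = 0.000309).

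Across the means of the 21 groups, the level of each member followed the mean of the other 9 with Pearson's r of 0.93 to 0.985, except Apob with 0.696. Over the 13 culture groups r was 0.838 to 0.977 for the other 9 and 0.316 for Apob. These are descriptions across group means that share lines, animals and control libraries. The 5 genes outside the set with the pattern most like the mean of the 10, of 9203 compared, were Guca2b (r = 0.9937), Rbp2 (0.9918), Ggt1 (0.987), Treh (0.9851) and Slc6a19 (0.9844).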

How the data were processed

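Libraries were directional and poly(A)-selected, per the labels' protocols. Reads were aligned with HISAT2 2.0.5 to GRCm38 (mm10), per the submitters' processing notes; the counting program, its strand setting and its annotation are not given in the sources used here. The deposited values are raw read counts per gene in 4 tables, without normalization, and medium with added Wnt3a (WENR) was not analysed here.

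Each experiment was fitted in edgeR 4.0.16 (R 4.3.3) with filterByExpr, TMM factors and the quasi-likelihood test over all genes that passed, and p-values were adjusted by Benjamini-Hochberg over all of them at 0.05. A standard error is the absolute log2 fold change divided by the square root of the test's F. Interaction terms compared genotype or 4-OHT effects between tissues or genotypes. CPM used 1 set of TMM factors over 92 libraries, and lengths from the tables gave CPM per kb. Ratios within a line added 0.5 CPM. The procedure was tested on simulated data with 200 changed genes.

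The members and gene lists were chosen with earlier results of these data known. Named were the 10 members, the pathway gene with the largest called rise and fall at a mean log2 CPM of at least 3, and the 5 most like genes at that level. Marker lists served as descriptions. Lines or animals pair libraries by label in the 4-OHT, A-485 and villus against crypt comparisons; same-line deviations correlated at 0.326 to 0.507 in the first organoid experiment, 0.384 to 0.783 in flox/flox and 0.628 to 0.859 in flox/+ spheroids, and 0.0504 to 0.339 with A-485. Alternatives were DESeq2 1.42.0, no filter, each library left out, a replicate or line block, other libraries in the fit and, in the Rosa26(CreER) mice, Ddx3y as a covariate. Shares of all genes called are those of the main fits. Member counts from blocked fits, or with a library left out, stand without such a share, as do counts of members without overlap. Precision varies with depth, and p-values measure the spread between these libraries only.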

Additional observations from a re-analysis of the deposited data

Results flagged for a closer look

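Of 180 sets of 4 to 6 libraries of 1 gene in 1 group, 13 had 1 library far from the others, where chance gives about 1 in 20. Of these, 5 were the first Rosa26(CreER) flox/flox crypt library: Apoa1 was at 2563 CPM there (917 to 1155 in the other 3), Apoa4 at 763 (266 to 308), Mttp at 1912 (550 to 762), Fabp2 at 2218 (708 to 928) and Mogat2 at 235 (80.7 to 94.8). Among villi, Apoa1 was at 17218 CPM in the first Rosa26(CreER) flox/+ animal (22095 to 23992 in the others), Fabp1 at 2691 in the fifth flox/flox animal of that strain (1785 to 2018), Mttp at 3972 in the second Vil1(CreER) flox/+ animal (6252 to 6581) and Cd36 at 437.5 in the fourth (205 to 229).

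In cultures, Apoa4 was at 1266 CPM in the third +/+ organoid culture with 4-OHT (568.5 to 626 in the others) and Cd36 at 4.57 in line S6026 at 3 µM A-485 (12.47 to 13.7). Spheroid line S9484-D with 4-OHT had Fabp1 at 62.43 CPM (0 to 23.0 in the other 5 lines) and Cd36 at 3.241 (0 to 0.398).

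The effect of Eif4g2 deletion differed between villi and crypts in edgeR's interaction test for Cd36 in the Rosa26(CreER) mice, by -4.35 on the log2 scale (villi minus crypts). In the Vil1(CreER) mice it differed for Mttp by 1.615, Apob by 1.388, Mogat2 by 1.028 and Dgat1 by 0.844. With the animal as a block 3 of these 5 lost the call in edgeR's test, Cd36 at an adjusted p of 0.0685, Apob at 0.0932 and Dgat1 at 0.0669. The explanation of these differences was not tested.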

How the results depend on the processing

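Of 87 called member values, 59 were called under every alternative, 28 lost the call under at least 1, and none changed sign. Counts of members called are given below as lower unless said. Leaving out 1 library gave these ranges. Rosa26(CreER): crypts higher 0 to 2 (1 with all libraries), villi higher 0 to 1 (1), villi lower 0 to 1 (1). Vil1(CreER): crypts 1 to 7 (3), villi higher 0 to 1 (0), interaction higher 1 to 5 (4). Second organoids: against flox/+ higher 0 to 1 (0) and lower 1 to 4 (3), against +/+ higher 0 to 1 (0) and lower 1 to 3 (4). Spheroids: flox/flox against flox/+ 0 to 1 (0), against organoids 1 to 3 (2). A-485: 3 µM 3 to 6 (6), 5 against 3 µM 0 to 1 (0).

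With DESeq2 the counts were 3 (Rosa26 crypts, higher), 2 (villi), 6 (Vil1 crypts), 1 (Vil1 villi, higher), 1 and 1 (second organoids against flox/+ and +/+, higher), 4 (flox/flox spheroids) and 1 (5 against 3 µM). Without the filter they were 0 and 0 (Rosa26 crypts and villi, higher), 1 (Vil1 villi, higher), 1 and 1 (second organoids), 0 (spheroids against organoids) and 3 (3 µM). With other libraries in the fit they were 0 higher and 0 lower (Rosa26 villi), 6 (Vil1 crypts), 2 (Vil1 villi), 4 (first organoids) and 1 (against +/+, higher). With Ddx3y as a covariate they were 9 higher (Rosa26 crypts) and 0 and 0 (villi).

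With the replicate block the counts were 2 (Rosa26 villi), 0 (its interaction), 2 (Vil1 interaction, higher), 1 (against flox/+), 1 (against +/+, higher), 7 (flox/flox spheroids), 2 (their interaction), 1 (spheroids against organoids, a fit added after the data were seen), 1 higher (3 µM) and 5 (5 against 3 µM). Same-numbered tissue animals and organoids of different genotype share only a number. No call of a member in the other blocked comparisons changed the counts by more than 1.5 times.

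Signs that turned were all of uncalled values near 0. In Rosa26(CreER) crypts Apoc3 was 0.934 with Ddx3y and ran from -0.608 (without flox/flox replicate 1) to 0.156 when 1 library was left out. Such ranges were -0.22 to 0.004 for Mttp in Vil1(CreER) villi, -0.301 to 0.03 for Apoa1 and -0.195 to 0.082 for Apob in the first organoids, and -0.403 to 0.027 (3 µM) and -0.568 to 0.006 (5 µM) for Apoa1 with A-485.

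Counts over all genes moved by over 1.5 times in some fits. They went from 4504 to 2967 with Ddx3y (Rosa26 villi), and from 1904 to 2884 with DESeq2, 1221 unfiltered and 777 blocked (its interaction). With other libraries they went from 5422 to 3079 (first organoids), 3358 to 2229 (5 against 3 µM) and 1577 to 880 (4-OHT spheroids by genotype), the last to 141 when blocked. Blocked spheroids went from 2864 to 4649 (flox/flox) and from 0 to 1 (flox/+). With DESeq2, unfiltered and blocked, flox/+ against +/+ organoids went from 16 to 156, 60 and 30, and the spheroid interaction from 243 to 603, 123 and 2758. The causes were not tested. At 10 µM A-485 the highest libraries held 10 reads of Cd36 and 23 of Apoc3, which limits their precision.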

Other observations

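Over the 13 culture groups, the 5 genes outside the set with the pattern most like the mean of the 10 members, of 9277 compared, were Guca2b (Pearson's r = 0.9911), Treh (0.9899), Slc39a5 (0.9896), Rbp2 (0.9886) and Clic5 (0.9856). Guca2b, Treh and Rbp2 were also among the 5 over all groups. Guca2b encodes the gut peptide uroguanylin, Treh the brush border enzyme trehalase and Rbp2 the retinol-binding protein of the enterocyte.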
